A study of Mus musculus with 11 samples.

Results

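The EGR and AP-1 immediate early genes described here are 10 transcription factor genes, Egr1, Egr2, Egr3, Fos, Fosb, Fosl2, Jun, Junb, Jund and Atf3, taken by gene name from a deposited table of raw read counts for 46078 mouse genes. All 10 were in the table and all 10 were among the 16365 genes that passed a filter on low counts and were tested. The table covers T cells sorted from the kidneys of wild-type mice that had been immunised with recombinant mouse myeloperoxidase (MPO) and then given low-dose sheep globulin against mouse basement membrane, which starts glomerulonephritis; kidneys were taken 21 days later. The 4 sorted groups were CD4+CD127-PD-1+ (n = 2 libraries), CD4+CD127+PD-1- (n = 3), CD8+CD127-PD-1+ (n = 3) and CD8+CD127+PD-1- (n = 3), where CD127 is the IL-7 receptor alpha chain and PD-1 is an inhibitory receptor of stimulated T cells. All 4 groups came from immunised, diseased mice, so no healthy or unsorted kidney entered. Cells of 3 mice were pooled for each sort, and the spread between libraries is therefore one between pools.

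Immediate early genes are switched on within minutes of a signal, from promoters that already hold their activators, without new protein being made. FOS and JUN proteins pair through leucine zippers into AP-1, which in T cells binds DNA beside NFAT after the T cell receptor and costimulatory receptors are engaged. EGR proteins are zinc finger factors driven by the same receptor, Egr2 and Egr3 being known as brakes on T cell responses, and Atf3 is a stress-induced relative of the AP-1 factors that often represses its targets. The same genes are also known to respond to the isolation of cells from tissue, and every library here came from isolated and sorted cells.

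Promoters of 4 members that differed between the sorted states are shown first, since promoter elements are the textbook route by which these genes respond. Egr2 and Atf3 rose in both lineages, Jun fell in both and Junb fell in CD8 cells only. Fosl2, which fell in both lineages, is not shown because its window lies wholly within its annotated exons. Each line gives the 250 bases before a RefSeq transcription start (GRCm38.p6), 5′ to 3′ on the gene's strand. Capitals mark a CArG box, the binding motif of serum response factor, or the short cyclic AMP motif TGACG, which reads CGTCA where it lies on the other strand. For Egr2 RefSeq lists several starts, and the window shown was picked after the search as one with both motifs; the short motif was added to the search after the windows had been seen. Egr2 lies at chr10:67537619-67537868 on the plus strand, Atf3 at chr1:191183334-191183583, Jun at chr4:95052223-95052472 and Junb at chr8:84978749-84978998, the last 3 on the minus strand.
Egr2: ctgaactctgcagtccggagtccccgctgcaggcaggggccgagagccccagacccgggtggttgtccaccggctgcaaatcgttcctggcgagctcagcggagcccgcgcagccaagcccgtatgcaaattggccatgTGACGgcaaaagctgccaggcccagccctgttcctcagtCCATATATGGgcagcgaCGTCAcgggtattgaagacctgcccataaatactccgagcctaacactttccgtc
Atf3: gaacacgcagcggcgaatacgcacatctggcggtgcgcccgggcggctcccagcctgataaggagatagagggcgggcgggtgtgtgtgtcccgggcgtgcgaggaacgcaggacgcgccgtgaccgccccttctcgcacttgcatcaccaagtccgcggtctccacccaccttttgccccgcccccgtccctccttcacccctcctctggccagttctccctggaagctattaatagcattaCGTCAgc
Jun: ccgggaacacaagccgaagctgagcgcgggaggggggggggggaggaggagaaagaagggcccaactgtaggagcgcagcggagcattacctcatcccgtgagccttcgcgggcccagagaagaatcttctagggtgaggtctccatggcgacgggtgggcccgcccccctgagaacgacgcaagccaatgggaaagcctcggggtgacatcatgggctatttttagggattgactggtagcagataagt
Junb: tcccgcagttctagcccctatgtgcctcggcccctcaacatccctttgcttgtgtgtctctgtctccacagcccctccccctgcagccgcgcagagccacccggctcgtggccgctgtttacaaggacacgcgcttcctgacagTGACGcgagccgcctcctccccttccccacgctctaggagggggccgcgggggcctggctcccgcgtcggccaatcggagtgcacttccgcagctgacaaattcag
The Egr2 window held 1 CArG box, whose first base lay 72 bases before the start, and 2 short cyclic AMP motifs. Such a box stood in 1.47% of 32851 RefSeq promoter windows of the same length. The short motif, searched on both strands, stood in 17.8% of all windows. At least 1 window of Egr2, Fos, Fosb, Junb and Atf3 held it, 5 of the 8 members with a window in the table. These 8 members have 12 windows, several of them of Egr2, so a count of members is not comparable with a share of single windows. In the Atf3 window it began 7 bases before the start, and the Jun window held none. Egr1 and Egr3 had no window to search. The full cyclic AMP response element TGACGTCA, which would contain the short motif, stood in 1.55% of all windows. It was in none of the windows of these 8 members. The AP-1 site TGANTCA (6.75% of all windows) was likewise in none of them. Only these exact letters were searched. TGACATCA, which stands in the Jun window, matches neither pattern and is left unmarked. The EGR site GCGNGGGCG (4.7%) was in those of Fosb and Fosl2, the Fosl2 window lying wholly within annotated exons of that gene. All these are matches of letters in short windows and say nothing of binding.

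Library totals ran from 10572505 to 16057310 counts. The T cell genes Cd3d, Cd3e, Cd3g, Cd2, Cd5, Lck and Cd247 were present in every library and summed to 918 to 1445 CPM, the count scaled to a common library size after TMM correction for composition. Genes of macrophages were present beside them: 9 markers (Csf1r, C1qa, C1qb, C1qc, Adgre1, Cd68, Fcgr1, Lyz2 and Apoe) summed to 1035 to 2143 CPM in CD4+CD127-PD-1+ libraries against 49.4 to 113 CPM in CD4+CD127+PD-1- libraries, and to 1060.06 to 2075 CPM in CD8+CD127-PD-1+ libraries against 58.8 to 122 CPM in CD8+CD127+PD-1- libraries. All 9 were higher in CD127-PD-1+ cells in both lineages, and none was at 0 in any library. Mitochondrially encoded genes took 38.5 to 44.9% of counts in CD8+CD127-PD-1+ libraries and 29.99 to 33.8% elsewhere. The 5 B cell markers summed to 95.2 to 246 CPM in CD8+CD127-PD-1+ libraries, against 10.1 to 51.7 CPM in CD8+CD127+PD-1- libraries, and overlapped between the CD4 groups.

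Per kilobase of exon, Jun was the most abundant member (176 CPM per kb over all libraries), followed by Fos (137), Egr1 (108), Fosb (58.3), Junb (51.4), Atf3 (45.7), Fosl2 (22.7), Jund (15.3), Egr2 (10.49) and Egr3 (1.01). Jun, Fos and Egr1 stood above 99.5%, 99.3% and 99.0% of the tested genes on that scale, whereas Egr3 stood above 27.1%. The order differed between the groups, most of all for Atf3. Atf3 and Junb averaged 54.9 ± 25.4 and 55.0 ± 7.1 CPM per kb in CD4+CD127-PD-1+ cells, within their spread (SD). In CD8+CD127-PD-1+ cells they averaged 84.5 ± 26.9 and 33.2 ± 4.83 CPM per kb. Atf3 also averaged above Fosb in both groups. Fosb stood at 43.9 ± 3.75 CPM per kb in CD4+CD127-PD-1+ cells, within the spread of Atf3, and at 47.9 ± 7.49 in CD8+CD127-PD-1+ cells. In CD127+PD-1- cells Atf3 averaged 25.3 ± 4.29 CPM per kb in CD4 and 21.1 ± 5.04 CPM per kb in CD8 cells, below Junb (68.3 ± 4.82 and 50.5 ± 1.67) and Fosl2 (29.5 ± 2.06 and 26.4 ± 3.06), though close to Fosl2. Egr2 and Jund averaged 13.5 and 12.4 CPM per kb in CD8+CD127-PD-1+ cells, the only group in which Egr2 had the higher mean of the pair.

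Between the CD127/PD-1 states the members went in opposite directions. Egr2 and Atf3 were higher and Jun and Fosl2 lower in CD127-PD-1+ than in CD127+PD-1- cells of both lineages, and Junb was lower in CD8 cells. Thus 2 members rose and 2 fell in CD4 cells, where 11.7% of all tested genes were called, 6.81% higher and 4.87% lower. In CD8 cells 2 rose and 3 fell, where 15.6% of all genes were called, 9.05% higher and 6.56% lower. These backgrounds depend on single libraries: from 1912 called genes in CD4 cells, leaving out replicate 1 of CD4+CD127-PD-1+ gave 976 and leaving out its replicate 2 gave 1178, while dropping replicate 1 of CD4+CD127+PD-1- gave 1163 and dropping its replicate 2 gave 1088. The count of 2555 in CD8 cells was 1475 without CD8+CD127-PD-1+ replicate 3 and 1567 without CD8+CD127+PD-1- replicate 2. A gene was called when edgeR's quasi-likelihood test gave an adjusted p under 0.05 over all tested genes. The median log2 fold change of the 10 members was -0.25 in CD4 cells, against 0.02 over all tested genes, and -0.33 in CD8 cells, against 0.01. As these are bulk libraries, fewer cells of a type and less RNA per cell cannot be told apart in any of these values.

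**Figure D1:**
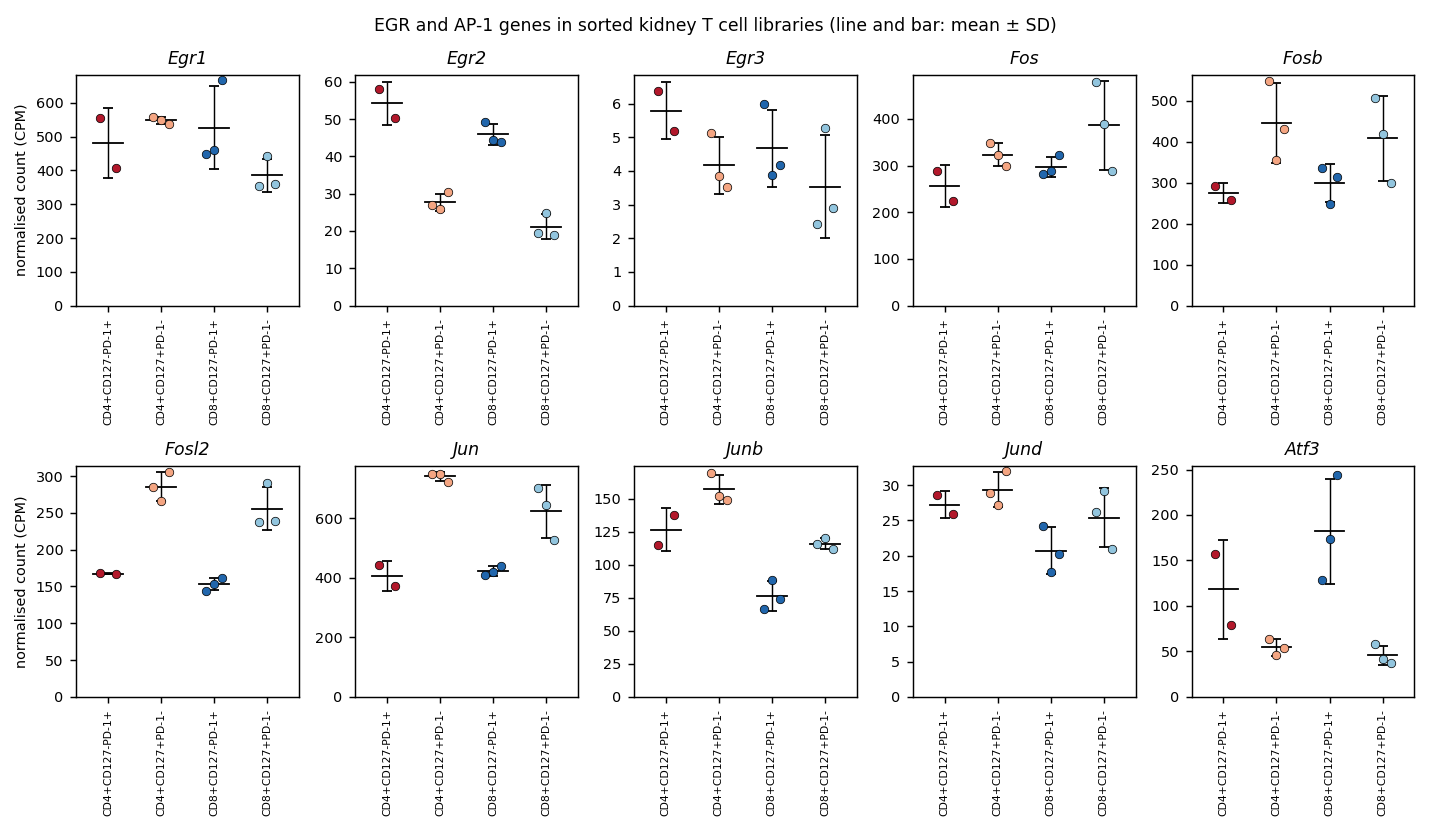
Normalised counts (CPM) of the 10 members in each library of the 4 sorted groups, 1 panel per gene, with points for libraries and the line and bar for mean ± SD. Egr2 and Atf3 sit higher, and Jun and Fosl2 lower, in both CD127-PD-1+ groups than in the CD127+PD-1- group of the same lineage, with no overlap of libraries.

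**Figure D2:**
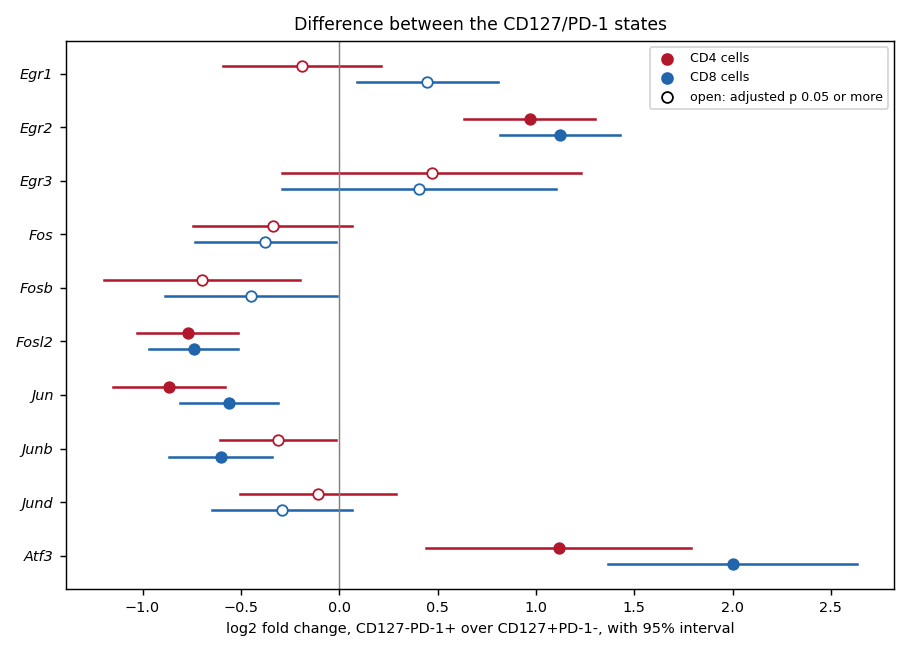
Log2 fold change of each member (CD127-PD-1+ over CD127+PD-1-, with its 95% interval) in CD4 cells (red) and CD8 cells (blue); filled points passed the adjusted p threshold of 0.05. Atf3 in CD8 cells is farthest to the right at 2.00, and Jun in CD4 cells farthest to the left at -0.86.

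Among the EGR genes, Egr2, a factor that restrains T cell activation and that macrophages also make, was the member that rose. Egr2 (ENSMUSG00000037868, chromosome 10, 67535475 to 67542188, plus strand, GRCm38) measured 58.2 and 50.2 CPM in CD4+CD127-PD-1+ libraries, against 26.9, 25.9 and 30.3 CPM in CD4+CD127+PD-1- libraries. Every CD127-PD-1+ library lay above every CD127+PD-1- library. The log2 fold change was 0.97 (SE 0.15, edgeR adjusted p = 0.00254), or 1.96-fold. Egr2 measured 49.2, 44.5 and 43.9 CPM in CD8+CD127-PD-1+ libraries, against 19.4, 24.9 and 18.9 CPM in CD8+CD127+PD-1- libraries. Again the groups did not overlap, and the log2 fold change was 1.12 (SE 0.14, edgeR adjusted p = 0.000411). Leaving out any 1 library kept both Egr2 calls, with adjusted p up to 0.0256 in CD4 and 0.00263 in CD8 cells.

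Egr1, the most abundant EGR gene and a first responder to growth factor and antigen receptor signals, did not pass in either state comparison. Egr1 (ENSMUSG00000038418) measured 554 and 407 CPM in CD4+CD127-PD-1+ libraries, against 559, 549 and 537 CPM in CD4+CD127+PD-1- libraries. These groups overlapped, and the log2 fold change of -0.19 (95% interval -0.59 to 0.21) turned to 0.02 without CD4+CD127-PD-1+ replicate 2. In CD8 cells Egr1 measured 450, 461 and 668 CPM in CD127-PD-1+ libraries, against 354, 442 and 360 CPM in CD127+PD-1- libraries. All CD127-PD-1+ libraries were higher, 1 of them by far, and the log2 fold change of 0.45 (95% interval 0.09 to 0.81) had an edgeR adjusted p = 0.0895. With no filter on low counts Egr1 was called there (0.41, edgeR adjusted p = 0.0438), and without CD8+CD127-PD-1+ replicate 3 the difference was 0.24 (edgeR adjusted p = 0.341).

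Egr3, which acts beside Egr2 in T cells, was the rarest member, at 5.79 ± 0.846 CPM (CD4+CD127-PD-1+) and 4.17 ± 0.851 CPM (CD4+CD127+PD-1-), and at 4.68 ± 1.14 CPM (CD8+CD127-PD-1+) and 3.54 ± 1.53 CPM (CD8+CD127+PD-1-) (SD). Its log2 fold changes of 0.47 in CD4 and 0.41 in CD8 cells were not called and had wide 95% intervals (-0.29 to 1.23 and -0.29 to 1.10). As a share of the summed CPM per kb of the 3 EGR genes, Egr2 took 12.0 and 13.8% in CD4+CD127-PD-1+ libraries, against 5.82 to 6.90% in CD4+CD127+PD-1- libraries. In CD8 cells it took 7.94 to 12.5% in CD127-PD-1+ libraries, against 6.43 to 6.85% in CD127+PD-1- libraries. Egr1 made up the bulk of the family in every library, from 85.1 to 93.5%.

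Of the 3 FOS genes, Fosl2, which encodes a FOS-related partner of JUN proteins, was called lower in CD127-PD-1+ cells of both lineages, and Fos and Fosb were not called in either. Fosl2 (ENSMUSG00000029135, chromosome 5, 32135801 to 32157842, plus strand) measured 168 and 167 CPM in CD4+CD127-PD-1+ libraries, against 286, 266 and 306 CPM in CD4+CD127+PD-1- libraries. With no overlap between the groups, it fell by 0.77 on the log2 scale (SE 0.12, edgeR adjusted p = 0.00222). In CD8 cells Fosl2 measured 144, 154 and 161 CPM in CD127-PD-1+ libraries, against 238, 290 and 240 CPM in CD127+PD-1- libraries. Here too the groups stood apart, and the fall was by 0.74 on the log2 scale (SE 0.10, edgeR adjusted p = 0.000761). No left-out library ended either call (adjusted p up to 0.0183 and 0.00487).

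Fos encodes the classical partner of JUN. Fos (ENSMUSG00000021250, chromosome 12, 85473890 to 85477273, plus strand) measured 288 and 224 CPM in CD4+CD127-PD-1+ libraries, against 349, 322 and 300 CPM in CD4+CD127+PD-1- libraries. In CD8 cells it measured 282, 288 and 322 CPM in CD127-PD-1+ libraries, against 480, 390 and 289 CPM in CD127+PD-1- libraries. The CD4 groups did not overlap and the CD8 groups did, 1 CD127+PD-1- library being as low as the CD127-PD-1+ ones. Neither difference was called, at -0.34 in CD4 (95% interval -0.74 to 0.07) and -0.38 in CD8 cells (-0.74 to -0.02). Without that library, CD8+CD127+PD-1- replicate 3, Fos was called in CD8 cells (-0.55, edgeR adjusted p = 0.0221), and without CD8+CD127+PD-1- replicate 1 its difference was -0.19 (edgeR adjusted p = 0.487).

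Fosb encodes a FOS protein best known for its long-lived splice form in neurons. Fosb (ENSMUSG00000003545, chromosome 7, 19302696 to 19310051, minus strand) measured 291 and 258 CPM in CD4+CD127-PD-1+ libraries, against 548, 356 and 431 CPM in CD4+CD127+PD-1- libraries. The CD4 groups did not overlap, and the log2 fold change of -0.70 (95% interval -1.20 to -0.20) missed the threshold (edgeR adjusted p = 0.0737). It was called by DESeq2 (adjusted p = 0.0307) and by edgeR with no filter on low counts (-0.72, adjusted p = 0.00445) or without CD8+CD127+PD-1- replicate 3 (-0.70, adjusted p = 0.0344), and leaving out a library of the CD4 groups gave -0.52 to -0.84, none of them called. In CD8 cells Fosb measured 336, 247 and 314 CPM in CD127-PD-1+ libraries, against 506, 419 and 300 CPM in CD127+PD-1- libraries. These overlapped, with a log2 fold change of -0.45 (95% interval -0.89 to -0.01). It was called without CD8+CD127+PD-1- replicate 3 (-0.63, edgeR adjusted p = 0.0414) and with no filter (-0.485, edgeR adjusted p = 0.0329), and it was -0.26 without CD8+CD127+PD-1- replicate 1 (edgeR adjusted p = 0.465).

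Jun, the central subunit of AP-1, fell in both lineages. Jun (ENSMUSG00000052684, chromosome 4, 95049034 to 95052222, minus strand) measured 442 and 370 CPM in CD4+CD127-PD-1+ libraries, against 748, 749 and 721 CPM in CD4+CD127+PD-1- libraries. The groups were far apart, and Jun fell by 0.86 on the log2 scale (SE 0.13, edgeR adjusted p = 0.00204), a level 1.82-fold lower. In CD8 cells Jun measured 409, 418 and 440 CPM in CD127-PD-1+ libraries, against 699, 644 and 525 CPM in CD127+PD-1- libraries. Those groups did not overlap either, and the log2 fold change was -0.56 (SE 0.11, edgeR adjusted p = 0.00657). Both calls held without any 1 library (adjusted p up to 0.0228 and 0.0287). The annotated gene Junos lies on the opposite strand at Jun, Prdx2 at Junb, Gm11175 at Jund and Gm24748 at Atf3, and the strand setting of the counting is not given in the sources used here, so reads of overlapping transcripts cannot be told apart.

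Junb, a JUN protein that in T cells pairs with BATF as well as with FOS proteins, fell in CD8 cells. Junb (ENSMUSG00000052837, chromosome 8, 84974484 to 84978718, minus strand) measured 66.8, 88.6 and 74.0 CPM in CD8+CD127-PD-1+ libraries, against 116, 120 and 112 CPM in CD8+CD127+PD-1- libraries. No libraries overlapped, and the log2 fold change was -0.60 (SE 0.12, edgeR adjusted p = 0.00607), kept without any 1 library (adjusted p up to 0.03). In CD4 cells Junb measured 115 and 138 CPM in CD127-PD-1+ libraries, against 170, 152 and 149 CPM in CD127+PD-1- libraries. There the log2 fold change of -0.31 (95% interval -0.61 to -0.02) was not called (edgeR adjusted p = 0.169). Set against each other, the CD4 and CD8 changes of Junb did not pass the test (0.29, 95% interval -0.10 to 0.68).

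Jund, the JUN protein that resting cells keep, was the least abundant JUN gene. It ranged from 25.9 to 28.6 CPM (CD4+CD127-PD-1+) and from 27.2 to 32.0 CPM in CD4+CD127+PD-1- libraries. In CD8 cells it ranged from 17.6 to 24.2 CPM in CD127-PD-1+ and from 20.9 to 29.1 CPM in CD127+PD-1- libraries. The groups overlapped in both lineages, and the log2 fold changes were -0.11 (95% interval -0.50 to 0.29) and -0.29 (-0.65 to 0.06). Junb took 24.3 and 31.3% of the summed CPM per kb of the JUN genes in CD4+CD127-PD-1+ libraries, against 20.8 to 22.7% in CD4+CD127+PD-1- libraries. In CD8 cells the share of Junb overlapped, at 16.9 to 21.4% in CD127-PD-1+ and 17.7 to 21.6% in CD127+PD-1- libraries.

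**Figure D3:**
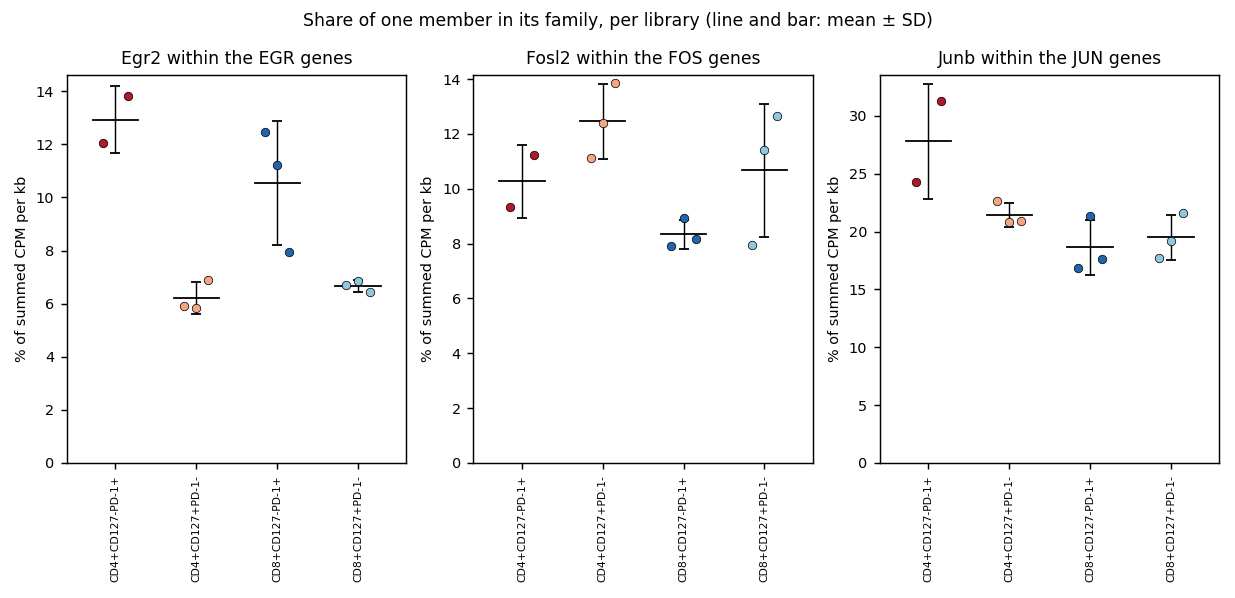
Share of Egr2 in the summed EGR genes, of Fosl2 in the summed FOS genes and of Junb in the summed JUN genes (percent of summed CPM per kb of exon), 1 point per library with mean ± SD. The Egr2 share is 12.0 and 13.8% in CD4+CD127-PD-1+ libraries and at most 6.90% in CD4+CD127+PD-1- libraries, whereas the Fosl2 share overlaps between the states in both lineages.

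The summed FOS genes measured 170 ± 22.9 CPM per kb in CD4+CD127-PD-1+ and 238 ± 23.8 in CD4+CD127+PD-1- cells, and 190 ± 13.1 in CD8+CD127-PD-1+ and 256 ± 57.3 in CD8+CD127+PD-1- cells (SD). The summed JUN genes measured 199 ± 9.92 CPM per kb in CD4+CD127-PD-1+ and 318 ± 7.66 in CD4+CD127+PD-1- cells, and 178 ± 5.48 in CD8+CD127-PD-1+ and 261 ± 31.1 in CD8+CD127+PD-1- cells. JUN libraries of the 2 states did not overlap in either lineage, and FOS libraries overlapped in CD8 cells. Within the FOS genes the share of Fosl2 overlapped between the states, at 9.32 and 11.2% in CD4+CD127-PD-1+ against 11.1 to 13.9% in CD4+CD127+PD-1- libraries, and at 7.90 to 8.93% in CD8+CD127-PD-1+ against 7.94 to 12.7% in CD8+CD127+PD-1- libraries.

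Atf3 had the largest log2 fold change among the 10 members in both state comparisons. Atf3 (ENSMUSG00000026628, chromosome 1, 191170296 to 191218039, minus strand) measured 129, 174 and 244 CPM in CD8+CD127-PD-1+ libraries, against 57.7, 41.9 and 36.9 CPM in CD8+CD127+PD-1- libraries. The groups stood well apart, and the log2 fold change was 2.00 (SE 0.29, edgeR adjusted p = 0.000918). In CD4 cells Atf3 measured 157 and 79.5 CPM in CD127-PD-1+ libraries, against 64.1, 45.6 and 53.9 CPM in CD127+PD-1- libraries. The groups did not overlap, but the 2 CD127-PD-1+ libraries differed widely, and the log2 fold change of 1.12 (SE 0.31, edgeR adjusted p = 0.0372) depended on them. Without CD4+CD127-PD-1+ replicate 1 it was 0.545 (edgeR adjusted p = 0.355), and it was 1.53 without replicate 2. The CD4 call was also lost on leaving out any CD4+CD127+PD-1- library (edgeR adjusted p = 0.0619, 0.126 and 0.089 for replicates 1, 2 and 3) or CD8+CD127-PD-1+ replicate 2 (adjusted p = 0.055), and by limma-voom (adjusted p = 0.0624).

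Atf3 and Egr2 were higher in the state whose libraries held more macrophage RNA. In the order of replicates, the 9 macrophage markers summed to 2143 and 1035 CPM in CD4+CD127-PD-1+ libraries and to 1060.06, 2075 and 2036 CPM in CD8+CD127-PD-1+ libraries. Atf3 was higher in the library with more macrophage RNA in the CD4 pair, and lowest in the CD8+CD127-PD-1+ library with the least. Egr2 was also higher in that CD4 library (58.2 against 50.2 CPM), but in CD8+CD127-PD-1+ cells it was highest, at 49.2 CPM, in the library with the least. Across all 11 libraries, which fall apart by state on this axis, Pearson's r of log2 CPM with the log2 macrophage sum was 0.93 for Atf3, 0.89 for Egr2, -0.85 for Jun and -0.93 for Fosl2. Within the 5 CD127-PD-1+ libraries r was 0.81 for Atf3, -0.08 for Egr2, 0.83 for Jun and 0.31 for Fosl2, given as a description of few libraries that share depth and sort. For the other members r there was 0.71 for Egr1 and Fos, and from -0.39 to -0.09 for Egr3, Fosb, Junb and Jund. Neutrophil markers (S100a8, S100a9, Csf3r, Ly6g and Retnlg) summed to 36.5 to 240 CPM (CD8+CD127-PD-1+) and to 2.22 to 12.5 CPM in CD8+CD127+PD-1- libraries. In CD4 cells they summed to 23.2 and 32.2 CPM in CD127-PD-1+ libraries, against 2.76 to 4.47 CPM in CD127+PD-1- libraries. Of 7 plasmacytoid dendritic cell markers, 5 fell in CD4 cells (Siglech, Ccr9, Cox6a2, Cacna1e and Tcf4) and 3 in CD8 cells (Siglech, Ccr9 and Cox6a2). Klk1 stood at 1.49 in CD4 cells, not called, with 167 and 12.0 CPM in the CD127-PD-1+ libraries. The 7 summed to 93.9 to 399 CPM (CD4+CD127-PD-1+) against 635 to 1353 CPM in CD4+CD127+PD-1- libraries, and to 150 to 176 CPM (CD8+CD127-PD-1+) against 488 to 973 CPM in CD8+CD127+PD-1- libraries. Endothelium and podocyte markers (Cdh5, Pecam1, Kdr, Emcn and Nphs1) summed to 62.0 and 64.8 CPM in CD4+CD127-PD-1+ libraries, against 121 to 154 CPM in CD4+CD127+PD-1- libraries. In CD8 cells they summed to 27.2 to 46.4 CPM in CD127-PD-1+ libraries, against 65.5 to 95.6 CPM in CD127+PD-1- libraries. They were thus lower, with no overlap, where Jun and Fosl2 were lower. So were 19.4% (CD4) and 16.4% (CD8) of single tested genes. Of the 3 markers of this list that were tested, Cdh5 and Pecam1 fell in both lineages, while up to 1 of the 5 was at 0 in a library. Pecam1 made up most of the sum, which thus mostly follows 1 gene. Kidney tubule markers (Umod, Slc12a1, Slc34a1, Lrp2, Kap and Aqp1) were not called in either lineage. By replicate they summed to 256, 123 and 7.14 CPM in CD8+CD127+PD-1- libraries, the order of Fos, Fosb and Jun. The 125, 59.5 and 45.0 CPM of CD4+CD127+PD-1- libraries followed the order of Fos, not of Fosb or Jun. In CD127-PD-1+ libraries the 26.4 and 50.0 CPM (CD4) and 59.1, 14.3 and 36.5 CPM (CD8) did not follow Fos, but in CD8 cells followed Fosb. The part of all these cells in the members' differences was not tested.

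**Figure D4:**
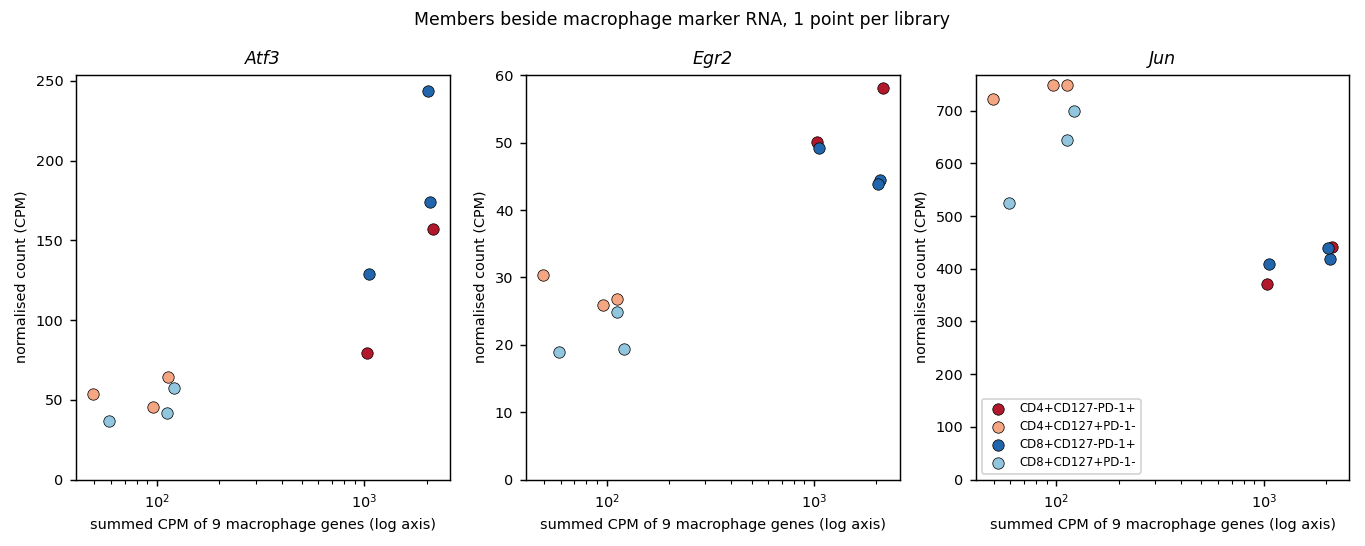
CPM of Atf3, Egr2 and Jun in each library against the summed CPM of 9 macrophage markers on a log axis, coloured by sorted group. The CD127-PD-1+ libraries lie at 1035 to 2143 CPM of macrophage markers and the CD127+PD-1- libraries at 49.4 to 122 CPM, so the states separate on both axes.

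By the number of non-overlapping groups, 3 members were higher and 5 lower in every CD4+CD127-PD-1+ library than in every CD4+CD127+PD-1- library, where 40.7% of all tested genes did not overlap, 21.3% higher and 19.4% lower. In CD8 cells 3 members were higher and 3 lower, where 34.4% of all genes did not overlap, 18% higher and 16.4% lower. The higher ones were Egr2 and Atf3 in both lineages, with Egr3 in CD4 and Egr1 in CD8 cells. The lower ones were Fos, Fosb, Fosl2, Jun and Junb in CD4 cells and Fosl2, Jun and Junb in CD8 cells.

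Other genes of the same pathways were measured in the same fits. Of the EGR partners, Nab2, a corepressor that EGR proteins induce and bind, rose in CD4 cells to 25.9 ± 5.09 CPM in CD127-PD-1+ libraries, against 13.4 ± 2.28 CPM in CD127+PD-1- libraries (SD; log2 fold change 0.95, SE 0.20, edgeR adjusted p = 0.0104). In CD8 cells Nab2 stood at 17.4 ± 1.97 CPM in CD127-PD-1+ and 12.1 ± 1.46 CPM in CD127+PD-1- libraries and was not called (0.52, edgeR adjusted p = 0.0739). Its relative Nab1 was not called in either (0.20 and 0.40), and Egr4 averaged at most 0.167 CPM in a group and was not tested.

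Of 14 other AP-1 and basic leucine zipper genes, 3 rose and 4 fell in each lineage, where 11.7% (CD4) and 15.6% (CD8) of all tested genes were called. The list medians were 0.07 and 0.12. The falling ones included Maff, a small MAF protein without an activation domain (-1.39 and -1.32 in CD4 and CD8 cells), its relative Mafk (-0.73 and -0.43), and Crem, a cyclic AMP responsive factor (-0.69 and -0.52). Jdp2, a JUN dimerisation partner that represses AP-1 sites, rose to 4.21 ± 0.9 CPM (CD4+CD127-PD-1+) against 1.07 ± 0.127 CPM (CD4+CD127+PD-1-) (1.97, SE 0.37, edgeR adjusted p = 0.00733), and to 5.16 ± 1.25 CPM (CD8+CD127-PD-1+) against 1.61 ± 0.659 CPM (CD8+CD127+PD-1-) (1.67, SE 0.33, edgeR adjusted p = 0.00582).

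Of all tested genes, 6.81% rose and 4.87% fell in CD4 cells, and 9.05% rose and 6.56% fell in CD8 cells. Of 28 other immediate early genes, 2 rose and 6 fell in CD4 cells and 2 rose and 5 fell in CD8 cells. Most, 20 and 21, were thus not called, and the list medians were -0.21 and -0.09. Klf2, a factor of resting and circulating T cells, fell by 1.34 in CD4 and by 1.405 in CD8 cells on the log2 scale. Ppp1r15a, which restarts translation after stress, fell by 0.82 and by 0.77. Cyr61, a matrix-associated protein not typical of T cells, rose by 4.36 and 3.24 from low levels, to 5.97 ± 0.644 CPM (CD4+CD127-PD-1+) against 0.286 ± 0.29 CPM (CD4+CD127+PD-1-). Ier3, a survival-related early gene, rose in CD8 cells (1.405, edgeR adjusted p = 0.00145), and its CD4 value was 0.66 (edgeR adjusted p = 0.119). Heat shock genes, which are also known to answer the handling of tissue, had 0 of 12 higher and 1 of 12 lower in each lineage. The lower one was Dnajb1, a chaperone partner of HSP70 (-0.77 in CD4 and -0.81 in CD8 cells). They summed to 11439 and 11584 CPM in CD4+CD127-PD-1+ libraries, against 12728 to 15701 CPM in CD4+CD127+PD-1- libraries, and to 10411 to 10906 CPM in CD8+CD127-PD-1+ libraries, against 11844 to 12020 CPM in CD8+CD127+PD-1- libraries. The heat shock sums thus lay lower wherever Jun and Fosl2 were lower. So did 19.4% (CD4) and 16.4% (CD8) of single tested genes, with no overlap. The part of handling in the heat shock, Jun and Fosl2 values was not tested.

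Among 18 upstream regulators, 2 rose and 1 fell in CD4 cells and 2 rose and 3 fell in CD8 cells. The shares of all tested genes were 6.81% higher and 4.87% lower in CD4 and 9.05% higher and 6.56% lower in CD8 cells. These small counts were not tested against those shares. Nfatc1, the calcium-driven partner of AP-1, rose to 320 ± 7.75 CPM (CD4+CD127-PD-1+) against 153 ± 12.2 CPM (CD4+CD127+PD-1-), and to 227 ± 30 CPM (CD8+CD127-PD-1+) against 136 ± 14.1 CPM (CD8+CD127+PD-1-) (SD). Prkcq, the protein kinase C theta that links the T cell receptor to AP-1, fell to 120 ± 10.8 CPM (CD4+CD127-PD-1+) against 203 ± 23.6 CPM (CD4+CD127+PD-1-), and to 133 ± 6.96 CPM (CD8+CD127-PD-1+) against 247 ± 14.1 CPM (CD8+CD127+PD-1-). Mapk3, the kinase ERK1, rose by 0.88 and 0.99, and Elk4, a partner of serum response factor, fell by 0.35 in CD8 cells and stood at -0.24 in CD4 cells, not called. Of 18 T cell stimulation genes, 3 rose in CD4 and 4 in CD8 cells and none fell, with list medians of 0.37 and 0.43. Rgs16, a regulator of G protein signalling (3.34 and 2.43), and Spry1, a brake on the RAS pathway (2.00 and 1.65), rose in both lineages. The helper cytokine Il21 rose in CD4 cells (3.91) and the cytokine Tnf in CD8 cells (0.96).

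Between the lineages the members differed less. In CD127-PD-1+ cells 1 of 10 members was higher in CD4 than in CD8 cells and 0 were lower, where 2.44% of all tested genes were called, 1.6% higher and 0.843% lower. The count of 400 behind this share was 126 with CD4+CD127-PD-1+ replicate 2 left out, 189 with replicate 2 of CD8+CD127-PD-1+ left out and 198 with its replicate 3 left out. That member was Junb, at 115 and 138 CPM in CD4+CD127-PD-1+ libraries against 66.8, 88.6 and 74.0 CPM in CD8+CD127-PD-1+ libraries (log2 fold change 0.73, SE 0.13, edgeR adjusted p = 0.0144). The groups did not overlap, but the call was lost on leaving out CD4+CD127-PD-1+ replicate 2 (0.57, edgeR adjusted p = 0.168), on leaving out CD8+CD127-PD-1+ replicate 3 (0.70, adjusted p = 0.0609), when only these 2 groups were fitted (0.73, adjusted p = 0.0992) and with the replicate number of the descriptions as a block (0.72, adjusted p = 0.0644). Atf3 stood at -0.62 there (95% interval -1.31 to 0.07), Jund at 0.39 (0.0012 to 0.79) and Egr2 at 0.24 (-0.09 to 0.57), and none of these was called. Crem was higher in CD4 than in CD8 cells of both states (0.81 and 0.98).

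In CD127+PD-1- cells edgeR called 0 of 10 members between CD4 and CD8, where 4.42% of all tested genes were called, 2.76% higher and 1.66% lower, and 4 members had an unadjusted p under 0.05, against 17.7% of all tested genes. The count of 723 was 395 with replicate 1 of CD4+CD127+PD-1- left out, 378 with its replicate 3 left out and 481 with CD8+CD127+PD-1- replicate 1 left out. DESeq2 and the fit without a filter on low counts each called 1 member, and limma-voom called 0. Egr1 measured 559, 549 and 537 CPM in CD4+CD127+PD-1- libraries, against 354, 442 and 360 CPM in CD8+CD127+PD-1- libraries. These did not overlap, with a log2 fold change of 0.51 (95% interval 0.15 to 0.87, edgeR adjusted p = 0.12). These libraries carry the same number in titles and descriptions, although other groups in the fit do not. Those with the same number correlated weakly, at 0.15 to 0.32, in their deviations from the group means, and the labels state no pairing. With the number of the descriptions as a block Egr1 was called (0.52, edgeR adjusted p = 0.0168), whereas with the number of the titles it was not (0.51, adjusted p = 0.141). Fitted on these 2 groups alone, without a block, Egr1 was called as well (edgeR adjusted p = 0.0375). Both blocks were set on all 11 libraries, and these 2 groups alone were not fitted with a block. Junb stood at 0.44 (95% interval 0.17 to 0.70, edgeR adjusted p = 0.0671), and DESeq2 called it (adjusted p = 0.0327). Libraries of the lineages did not overlap for 4 members, all higher in CD4 cells, in each state, where 27.8% of all tested genes did not overlap in CD127-PD-1+ cells (14.3% higher, 13.5% lower) and 22.8% in CD127+PD-1- cells (11.9% higher, 10.9% lower). These were Egr2, Fosl2, Junb and Jund in CD127-PD-1+ cells and Egr1, Egr2, Jun and Junb in CD127+PD-1- cells.

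Tested for a CD4 state change unlike that in CD8 cells, edgeR called 0 of 10 members and 1 of all 16365 tested genes (0.00611%). At an unadjusted p under 0.05 there was 1 member, Egr1 (-0.64, 95% interval -1.18 to -0.10, edgeR adjusted p = 0.842), against 5.48% of all tested genes. DESeq2, limma-voom and the other alternatives also called 0 members. The interval for Atf3 ran from -1.81 to 0.04 around -0.88. For Fosl2 the difference was -0.03 (95% interval -0.37 to 0.31) and for Egr2 -0.15 (-0.61 to 0.30).

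Libraries of 1 sorted group also varied among themselves, and there the members moved otherwise than between the states. Across all 11 libraries 25 of 45 member pairs had a positive Pearson's r of log2 CPM, from -0.84 for Fosl2 with Atf3 to 0.93 for Fosl2 with Jun. After each group's mean was subtracted, 36 of 45 pairs were positive (median r 0.30, against 0.10 before). Fos and Jun then had r of 0.98, against 0.68 across all libraries, and Atf3 with Jun had 0.74, against -0.70. Fos and Egr2 had 0.15, against -0.65. These 11 points share the libraries, their depth and their scaling, and the 2 CD4+CD127-PD-1+ deviations mirror each other by construction.

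**Figure D5:**
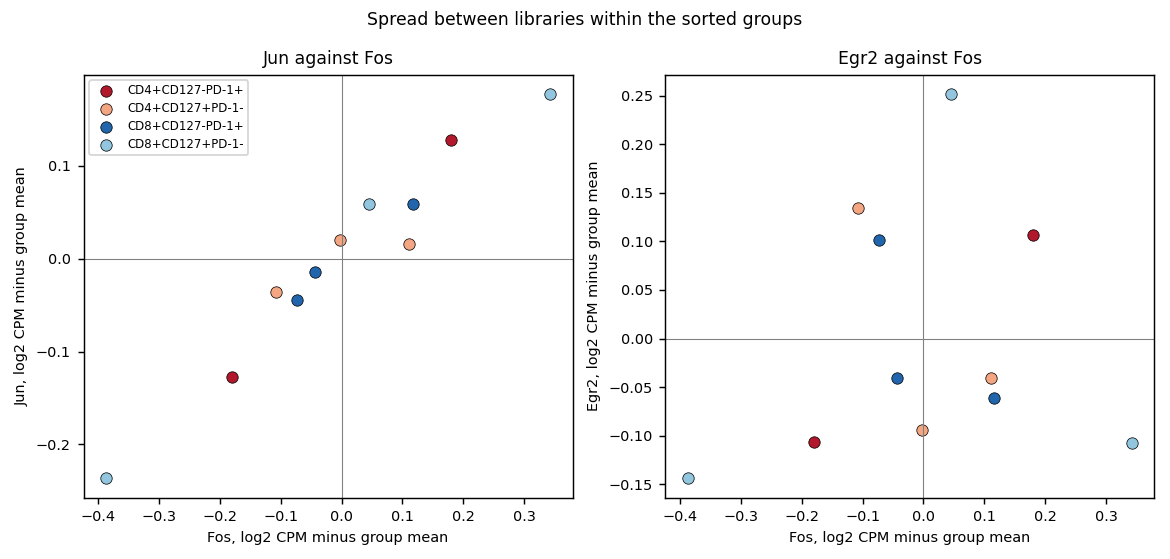
Deviation of Jun (left) and of Egr2 (right) from the group mean against that of Fos, in log2 CPM, 1 point per library. Jun follows Fos within the groups (r of 0.98), whereas Egr2 does not line up with it (r of 0.15).

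The genes whose log2 CPM ran most like that of Egr2 over the 11 libraries were Stab1, a scavenger receptor of macrophages and endothelium (r of 0.98), Trps1, a GATA-type repressor (0.97), Mmp13, a collagenase (0.97), and Ptgs1, a cyclooxygenase (0.96). Stab1 measured 63.5 and 93.7 CPM in CD4+CD127-PD-1+ libraries and at most 5.40 CPM in CD4+CD127+PD-1- libraries, and 24.1 to 54.4 CPM in CD8+CD127-PD-1+ libraries and at most 0.953 CPM in CD8+CD127+PD-1- libraries. Jun ran most like Il4ra, the IL-4 receptor alpha chain (r of 0.97), Cxxc5 (0.96), Egfr (0.96) and the immunoglobulin pseudogene Iglj3p (0.96). Cxxc5 and Egfr were low, at most 7.54 and 6.38 CPM in a library. Iglj3p was near the floor, at most 1.16 CPM and at 0 in every CD8+CD127-PD-1+ library. Il4ra measured 46.5 and 49.0 CPM (CD4+CD127-PD-1+) against 95.7 to 97.6 CPM in CD4+CD127+PD-1- libraries, and 45.5 to 56.2 CPM (CD8+CD127-PD-1+) against 80.5 to 94.97 CPM in CD8+CD127+PD-1- libraries. Fos ran most like Tagap, an activation-linked GTPase regulator (r of 0.93), Crtc1, a coactivator of cyclic AMP responsive genes (0.91), Eif4a1, a translation helicase (0.89), and Mybbp1a (0.89). Nothing about shared control follows from this likeness.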

How the data were processed

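RNA of 4 sorted T cell groups (11 libraries) was measured by sequencing. Per the labels' protocols, 2 ng of total RNA per library was amplified by single primer isothermal amplification and read as 75-base single reads in 1 pool. The deposited values are raw read counts per gene. The submitters' processing notes name the aligner STAR, the counter featureCounts and the build GRCm38; for tool versions, annotation release and strand, nothing is given in the sources used here. The 11 columns matching labelled samples were used, and 1 further column with no labelled sample was not; per the labels, quality control removed 1 library of the CD4+CD127-PD-1+ group. Replicate libraries differed by more than sampling noise (at least 12 chi-square units per gene), so none was merged.

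The count model was edgeR 4.0.16 under R 4.3.3. Genes passing filterByExpr (16365) were scaled by TMM, and a quasi-likelihood fit of 4 group means to all 11 libraries was used for the 5 comparisons, with Benjamini-Hochberg adjustment over all tested genes and a threshold of 0.05. SE is the estimate over the square root of F, and intervals are 95% t intervals from it. CPM use TMM-scaled sizes of the tested genes' totals. Correlations used log2 CPM with a prior count of 2. Exon lengths and coordinates are from GENCODE M21 (GRCm38), which held 45229 of the 46078 identifiers. The step was tested on simulated counts. CD127+PD-1- libraries of CD4 and CD8 cells with the same number were correlated in their deviations from the group means. The r was 0.21, 0.15 and 0.32 for numbers 1, 2 and 3. These 3 pairs met a cut of over 0.1. By the titles, the CD8 states also shared numbers 1, 2 and 3, with r of 0.11, -0.05 and -0.16. By the descriptions, no other comparison shared 3 numbers, so none could have 3 such pairs. The CD4 states shared only numbers 2 and 3 (0.09 and 0.33) and the CD8 states only 1 and 3 (0.11 and 0.16). The CD127-PD-1+ groups shared only number 3 (0.13). Libraries sharing the title number alone had r of 0.27 and -0.09 (CD4 states), -0.05 and -0.16 (CD8 states) and -0.04 (CD127-PD-1+ groups). The r of libraries unlike in both numbers was not computed, so pairing is not shown, and the labels do not state it. The alternatives were RLE size factors, no or a stricter filter (1 CPM in 2 libraries), DESeq2 1.42.0, limma-voom (limma 3.58.1), fits of the compared groups only, mitochondrial genes left out, replicate blocks, and each library left out. The members, lists and naming rules were chosen with earlier results of these data known. All 10 members are named; from each pathway list, up to 4 called genes with the smallest p in a state comparison; and for Egr2, Fos and Jun the 4 most correlated genes apart from predicted ones. Further examples outside these rules (Nab1, Egr4, Crem between lineages) were chosen after their values were seen. The macrophage sums and the endothelium and podocyte sums each leave out 1 gene of the chosen list, which is not reported here.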

Additional observations from a re-analysis of the deposited data

How the results depend on the processing

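Of the called members, Egr2, Fosl2 and Jun in both state comparisons and Atf3 and Junb in the CD8 comparison kept direction and call under all 20 alternatives; the exceptions are Atf3 in CD4 cells and Junb between lineages, given above. The cause of each change below was not tested. Leaving out 1 library gave 976 to 2051 called genes in the CD4 state comparison (1912 with all libraries), 1475 to 2682 in the CD8 one (2555), 126 to 443 between lineages in CD127-PD-1+ cells (400), 378 to 764 in CD127+PD-1- cells (723) and 0 to 5 for the difference of state changes (1); members called there were 3 to 5, 5 to 7, 0 to 1, 0 to 1 and 0. Without a filter, calls between lineages numbered 791 in CD127-PD-1+ and 1215 in CD127+PD-1- cells and 85 for the difference of state changes; by DESeq2, 717, 1192 and 60. Fitting the compared groups alone gave 214 calls and 0 members in CD127-PD-1+ cells and 2 members in CD127+PD-1- cells, where no filter, DESeq2 and the block on the number of the descriptions gave 1 each.

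The replicate block on the number of the descriptions left 0 members in CD127-PD-1+ cells (Junb 0.72, adjusted p = 0.0644), and that on the number of the titles 0 genes for the difference of state changes. Fosb was called in CD4 cells under both blocks (-0.73 and -0.53, adjusted p = 0.0269 and 0.0463); in these comparisons the libraries share only a number. Some uncalled values near 0 changed sign. Egr1 ran from -0.43 to 0.0236 in the CD4 state comparison and from -0.37 to 0.0772 between lineages in CD127-PD-1+ cells when 1 library was left out, Jun there from -0.19 to 0.052, and Fosb in CD127+PD-1- cells from -0.0702 to 0.31; Fosb was 0.13 in CD127-PD-1+ cells under the block on the descriptions. For the difference of state changes the leave-one-out ranges were -0.34 to 0.28 for Egr3, -0.15 to 0.21 for Fos and -0.13 to 0.0285 for Fosl2, with Egr3 at -0.0288 and -0.12 and Fos at -0.0563 under the blocks on titles, descriptions and titles. Groups held 2 or 3 libraries, so an uncalled member is not shown to be unchanged.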
